A study of Mus musculus with 4 samples.

Results

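The response of wild-type mouse B lymphocytes to 4 h with PMA and a calcium ionophore was read from 2 of the 4 arrays of the series, 1 of stimulated and 1 of non-stimulated cells. The arrays were chosen by their sample titles alone, and the response of a gene is its log2 signal in the stimulated array minus that in the non-stimulated one. Of 22180 genes named by the array annotation, 12456 reached the signal floor of 3.83 in at least 1 of the 4 arrays and were used. All mice were on the C57BL/6 background. Cell suspensions came from spleens, thymi and lymph nodes and were sorted by B220 (CD45R), a surface form of the phosphatase CD45 that marks B cells. The wild-type stimulated cells received PMA (phorbol 12-myristate 13-acetate) at 10 ng/mL with the ionophore A23187 at 1 µM. The other 2 arrays hold Tilcara cells, from a mutant of the kinase PKCbeta, in the same 2 states. They enter here through the gene filter, the choice of a gene's probe set and the only test that the design allows. Each group is 1 sample on 1 array, and the sources used here give no number of mice behind a sample. They also do not say whether non-stimulated cells were held in culture for the same 4 h, so the part that culture itself played in the differences was not tested.

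PMA stands in for diacylglycerol, the membrane lipid made when an antigen receptor is engaged, and switches on protein kinase C and RasGRP proteins. A23187 carries calcium into the cytosol and so activates calcineurin and the NFAT factors. Together they start the signals of the antigen receptor without touching the receptor. A resting B cell is small, poor in ribosomes and equipped with receptors for antigen, microbial products and homing cues, and on activation it leaves this state, grows and prepares to divide.

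B cell transcripts were plain in the non-stimulated array. Cd79b, for a signalling chain of the antigen receptor, read 11.39 there and 6.96 in the stimulated array. Ms4a1, for CD20, read 10.64 and 8.23, and Ptprc, for CD45 itself, read 10.73 and 8.92. All 3 fell in the test described below. Among markers of other cells, the widest difference was in neutrophil genes: S100a8 was 76.1-fold lower after stimulation, at 2.75, and S100a9 read 7.61 without stimulation and 3.48 with it. Both were already low in the non-stimulated Tilcara array, where S100a8 read 3.81 and S100a9 4.09, so for these 2 genes the wild-type non-stimulated array stood apart from the other 3; what part this had in other differences was not tested. In whole populations such as these, fewer cells of a type and less RNA per cell cannot be told apart. The log2 of the summed linear signal of the marker lists moved from 7.28 to 6.58 for T cells (7 of 10 listed genes used, 3 at least 2-fold lower), from 8.04 to 6.90 for NK cells (7 of 8, 5 lower), from 8.47 to 7.92 for macrophages and monocytes (8 of 10, 3 lower) and from 9.53 to 5.61 for neutrophils (4 of 10, 2 lower; 5.89 and 5.28 in Tilcara). It moved from 7.92 to 7.72 for dendritic cells (5 of 8), from 5.17 to 4.86 for erythroid cells and platelets (2 of 7), from 6.74 to 5.85 for thymocytes (2 of 5) and from 9.19 to 5.80 for stroma (3 of 6). Nearly all of the stromal sum was Pecam1, which B cells also express. None of the 5 mast cell and basophil genes reached the floor in any array, and no gene of any of these lists was at least 2-fold higher. Without the markers of other cells, 1666 genes remained at least 2-fold higher and 1963 lower, against the counts that follow.

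After stimulation 1666 genes (13.4% of those used) had gained at least 2-fold over the non-stimulated array, and 1979 (15.9%) had lost as much. The median difference was 0.03, and 6422 genes lay within 1.5-fold. A difference of 4-fold or more was read for 424 genes upwards and 677 downwards, and one of 16-fold or more for 24 and 64. In 183 of the higher genes the non-stimulated signal lay below the floor, and in 505 of the lower genes the stimulated signal did; folds of such genes are approximate. No replicate of either state exists within the genotype, so these counts are differences between single arrays and carry no test. For scale, the non-stimulated arrays of both genotypes differed by at least 2-fold in 135 genes (1.08%), and olfactory receptor genes, which B cells are not known to use, in 1.72% of 1105 genes between the wild-type arrays when the floor was not applied. Of the 72 olfactory receptor genes above the floor, 4 (5.56%) were past 2-fold upwards and 6 (8.33%) downwards.

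The only test available takes both genotypes together. Limma fitted stimulation and genotype over the 4 arrays, with 1 residual degree of freedom and Benjamini-Hochberg adjustment over 12456 genes at 0.05. It called 2740 genes higher (22%) and 2836 lower (22.8%). In what follows, "rose" and "fell" are kept for genes that it called, and "higher" and "lower" describe the wild-type arrays. Of the 1666 genes at least 2-fold higher in wild type, 1580 rose in that sense, and of the 1979 lower, 1870 fell. The fit includes the wild-type arrays by which these genes were picked. Such overlaps, also for the largest differences below, are therefore largely set in advance and are no independent support. Signals of different genes come from different probes, so a level is set only against the same gene in the other array.

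**Figure D1:**
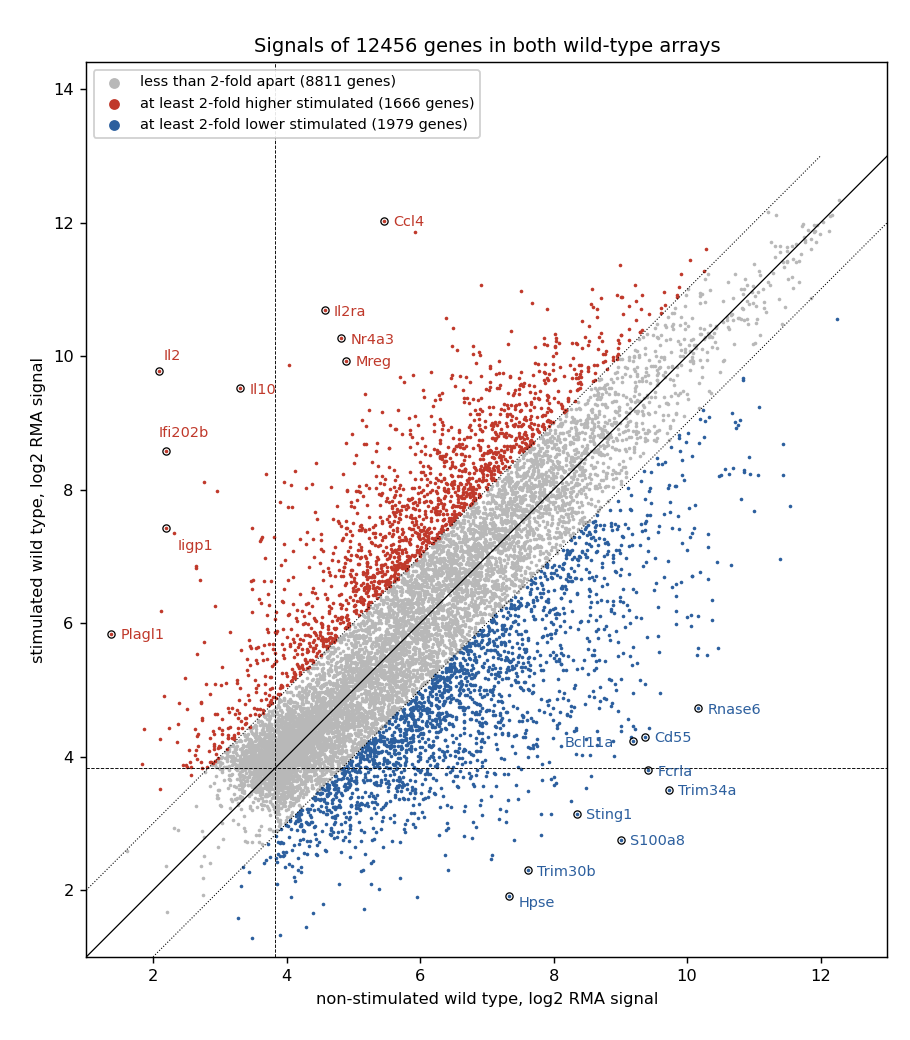
Log2 RMA signal of each of 12456 genes in the non-stimulated (horizontal axis) and stimulated (vertical axis) wild-type array, 1 point per gene. The solid line marks equal signals, the dotted lines a 2-fold difference and the dashed lines the floor of 3.83; 1666 red genes lie above the band and 1979 blue genes below it, and the labelled genes are among the largest differences.

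The largest increases were in genes for secreted proteins and their receptors. Beside Il2, Il10 and the chemokines Ccl3 and Ccl4, whose stimulated signals stood between 9.52 and 12.03, Plau read 4.03 without stimulation and 9.86 with it, 57-fold higher. Plau encodes urokinase, a secreted protease that turns plasminogen into plasmin. Il1r2 read 2.77 and 8.11. It encodes the decoy receptor that binds interleukin-1 without passing a signal on. Vegfa, for the angiogenic growth factor, read 3.69 and 8.23, and Cxcl10, for a chemokine that draws activated lymphocytes, read 2.96 and 7.98. Others of the set act inside the cell or in its vesicles. Mreg, for melanoregulin, a protein of lysosome-related organelles, read 4.89 and 9.93, and Cd63, for a tetraspanin of late endosomes, read 2.32 and 7.35. Iigp1, for an interferon-inducible GTPase, read 2.20 and 7.42. Plagl1, for a zinc finger factor, read 1.37 and 5.84, and its second probe set differed by 1.42 only. All 15 genes of this set rose in the limma fit.

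The 15 largest decreases were mixed in function, with S100a8 first and Trim34a second. Sting1, for the adaptor that answers cytosolic DNA, read 8.35 without stimulation and 3.14 with it, 36.9-fold lower. Traf3ip3, for an adaptor that binds TRAF3, read 8.26 and 3.34. Pld4, for an endolysosomal nuclease, read 8.91 and 4.01, and Cyb561a3, for a lysosomal iron reductase, read 9.43 and 4.43. Il10ra, the ligand-binding chain of the interleukin-10 receptor, read 8.49 and 3.52, while Il10 itself went from 3.31 to 9.52. Icosl, the ligand by which B cells engage ICOS on T cells, read 9.16 and 4.29. Cd55, for a membrane shield against complement, read 9.37 and 4.30, and Bcl11a, for a factor of early B cell development, read 9.19 and 4.23. Bcl11a has a second probe set, which differed by −4.88 against −4.96 for the first. Dennd5b, for an exchange factor of Rab GTPases, read 7.81 and 2.82 with a second probe set at −3.16. All of the 15 genes but S100a8 fell in the limma fit, and S100a8 missed the threshold at an adjusted p of 0.0527.

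**Figure D2:**
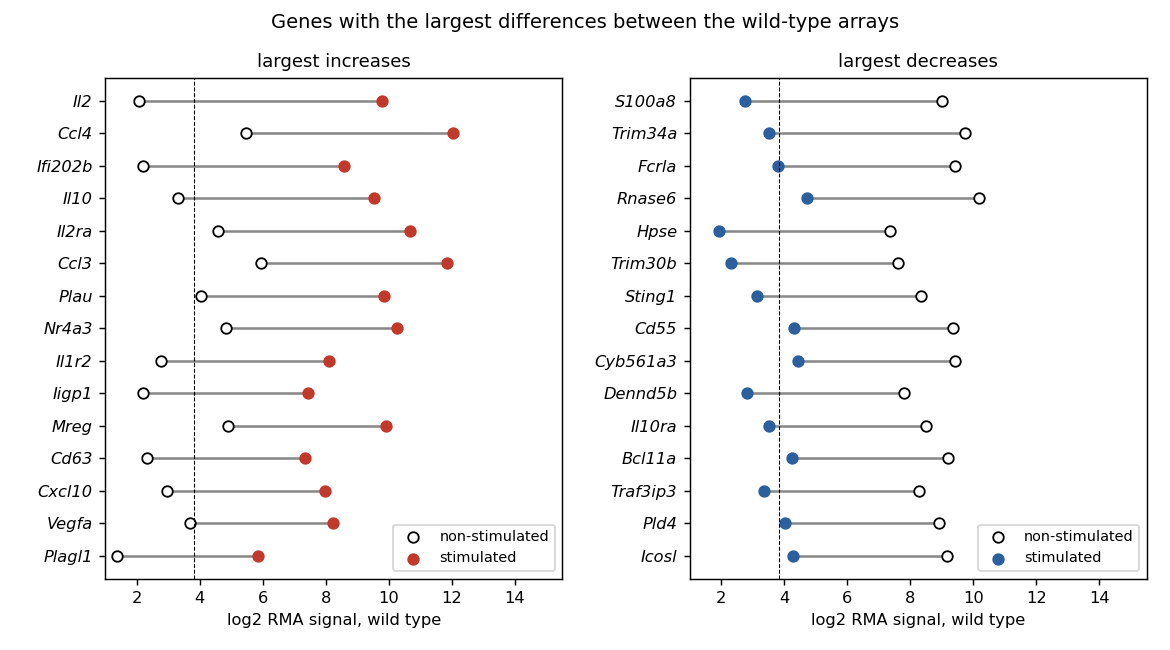
Log2 RMA signals of the 15 genes with the largest increase (left) and the 15 with the largest decrease (right) between the wild-type arrays, without predicted genes, small RNAs and antigen receptor segments. Open points are the non-stimulated array, filled points the stimulated one, and the dashed line is the floor of 3.83, below which 9 of the increases start and 9 of the decreases end.

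Genes were also read in 58 lists of pathways and cell programmes, which hold 963 different genes that were used. In stimulated wild type 312 of them stood 2-fold or more above the resting signal and 256 as far below it. Since members and lists were chosen with results of these data known, a list is described by its counts and median beside those of all genes, and has no test of its own. The share called also moves with signal: with genes split by mean signal into 4 sets of equal size, from dim to bright, 3.92%, 8.29%, 17.7% and 23.6% were past 2-fold upwards, and 9.12%, 20.7%, 20.9% and 12.8% downwards.

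**Figure D3:**
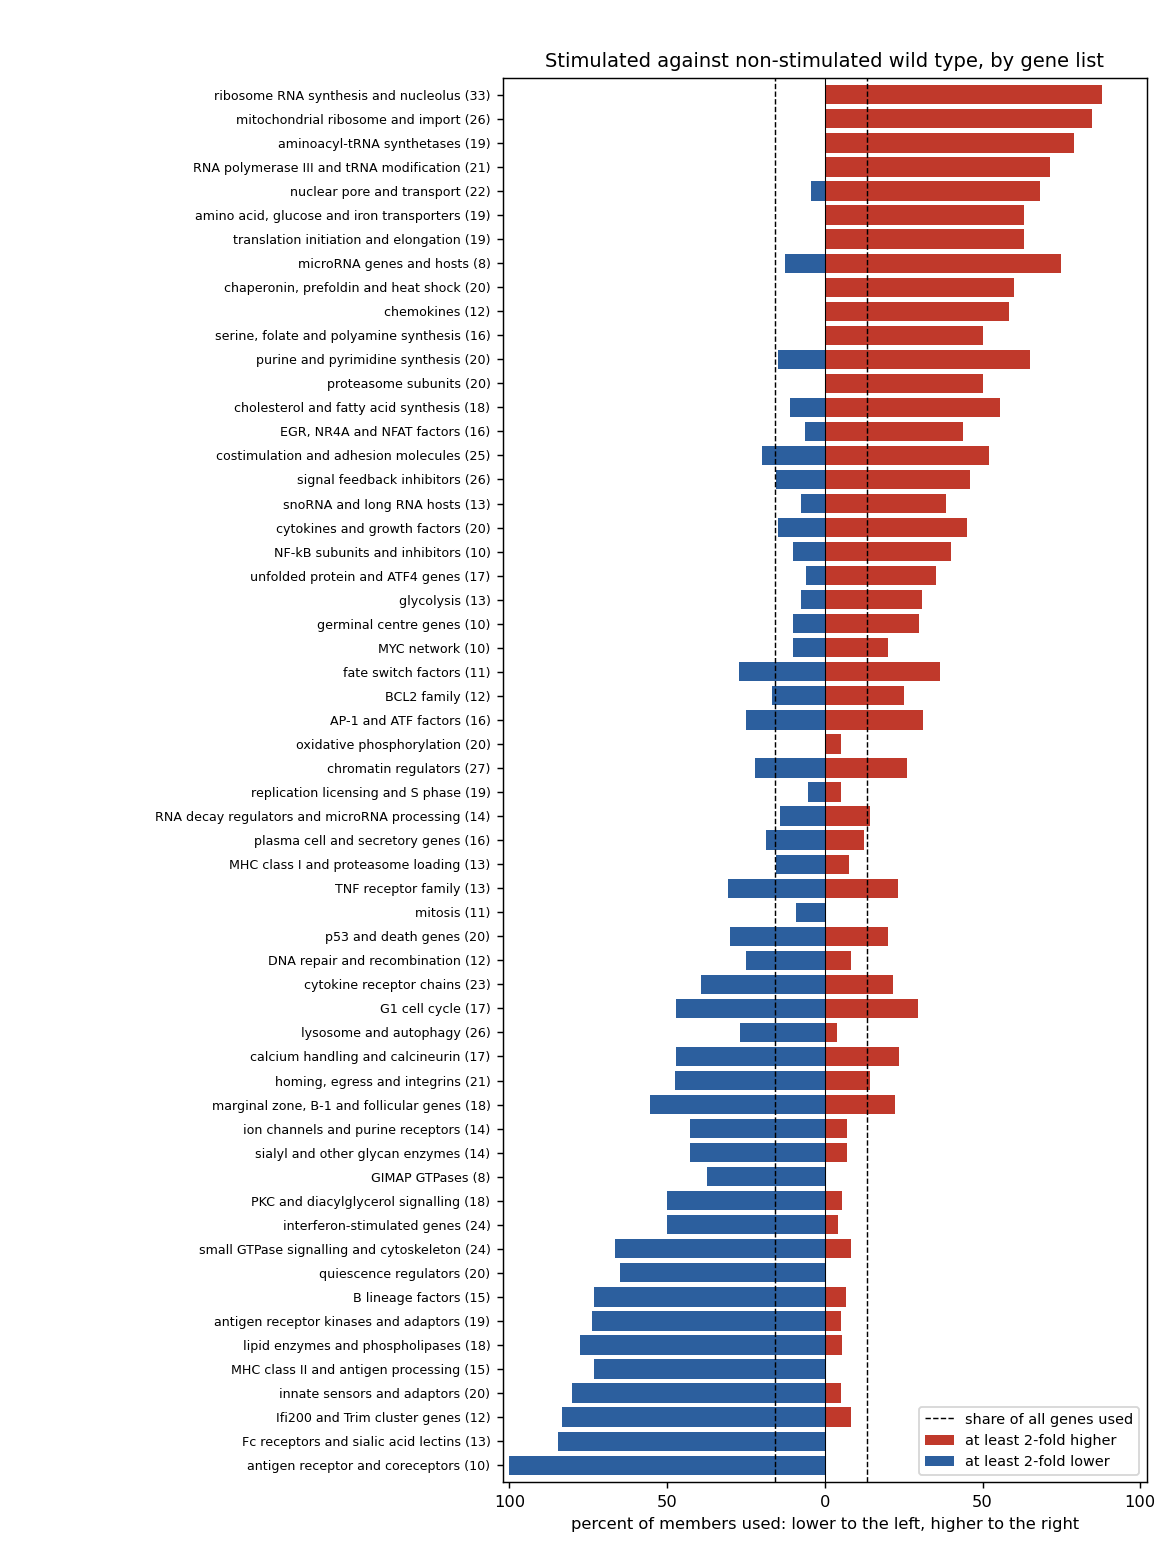
Percent of the members used in each of 58 gene lists (number in brackets) that were at least 2-fold higher (red, to the right) or lower (blue, to the left) in stimulated against non-stimulated wild type. Dashed lines are the shares of all genes used, 13.4% higher and 15.9% lower; lists of ribosome making and protein synthesis stand at the top and lists of antigen receptors, Fc receptors and innate sensors at the bottom.

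The machinery that makes ribosomes was higher almost throughout. Of 33 nucleolar genes used, 29 were at least 2-fold higher, none was lower and the median difference was 2.11; 32 rose in the limma fit. The catalytic subunits of RNA polymerase I, which transcribes ribosomal RNA, moved together: Polr1a read 6.82 and 8.84, and Polr1b read 5.53 and 8.63. Rrn3, which recruits that polymerase to its promoter, read 6.90 and 8.59. The box C/D and H/ACA particles that modify ribosomal RNA were read through some of their core proteins. Fbl, also listed, had no probe set with a single symbol. Nop58 read 7.72 and 10.13, and Nop56, its partner, 9.03 and 10.89. Dkc1, the pseudouridine synthase of H/ACA particles, read 6.58 and 8.90, and its partners Nhp2 and Gar1 differed by 2.65 and 2.11. Genes of other nucleolar proteins rose by less than 2-fold: Ubtf by 0.62, Tcof1 by 0.59 and Npm1 by 0.51, the last with 1.68 on its second probe set. Taf1d, a subunit of the selectivity factor of RNA polymerase I, read 10.61 and 10.44 and did not pass the test (adjusted p = 0.98). It has 11 probe sets, and the second brightest differed by 1.28.

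Genes of the guide RNAs themselves were read on the same array. Of 46 C/D box snoRNA genes used, 24 (52.2%) were at least 2-fold higher and 4 lower, and of 25 H/ACA box genes 12 (48%) were higher and 1 lower. The medians were 1.08 and 0.90. Most such RNAs lie in introns of host genes, so their probe sets may also read the host's precursor RNA. Among the hosts, Snhg15 read 7.05 and 9.85, Snhg4 read 8.04 and 10.04, and Snhg1 read 9.34 and 10.28. By contrast, Neat1, a long RNA that builds paraspeckles, fell from 8.60 to 6.65 in wild type, and Malat1 fell from 11.42 to 10.48. Ribosomal protein genes were mostly near their resting signal, with 11 of 62 at least 2-fold higher, none lower and a median of 0.15. Rplp1, for a protein of the ribosomal stalk, read 12.27 and 12.34, and Rpl41 read 12.15 and 12.11, both near the top of the signal range.

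RNA polymerase III and the enzymes that modify transfer RNA followed the nucleolar genes. Of 21 used, 15 were at least 2-fold higher, none lower, with a median of 1.39; 16 rose and 2 fell. Polr3g, for an alternative subunit of the enzyme, read 4.89 and 7.42, and Polr3d and Polr3e differed by 2.34 and 2.14. Pus7, a pseudouridine synthase, read 5.14 and 7.90. Both subunits of each of 2 methyltransferases of transfer RNA were higher: Mettl1 by 2.25 with Wdr4 by 1.39, and Trmt61a by 2.10 with Trmt6 by 1.77. Those that fell were Maf1, a repressor of the polymerase, by 0.55 in wild type, and Gtf3c1, a subunit of the factor TFIIIC, by 0.53. Brf1, Polr3c and Gtf3c6 did not pass the test, with differences of 0.09, −0.07 and 0.45.

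Aminoacyl-tRNA synthetases load transfer RNAs with their amino acids. Of 19 genes used of 22 listed, 15 were at least 2-fold higher with a median of 1.63, and 16 rose. Tars, for threonine, read 6.66 and 9.37, Cars, for cysteine, 5.60 and 8.30, and Yars, for tyrosine, 5.48 and 8.16. Others did not rise. Vars, for valine, fell from 7.29 to 6.54, and Qars, for glutamine, read 6.32 and 6.35, with an adjusted p of 0.974. Aimp1, a scaffold of the synthetase complex and not an enzyme, read 8.29 and 9.04 and was not called.

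Of 19 translation factors used, 12 were at least 2-fold higher and none lower, and 13 rose. The whole Eif family by symbol had a smaller share, with 18 of 49 genes higher, 2 lower and a median of 0.54. Most listed genes act in initiation. Eif4e, which binds the cap of messenger RNA, read 6.75 and 9.13, Eif1a read 6.29 and 8.70 and Eif2b3, a subunit of the exchange factor of eIF2, read 4.99 and 7.50. Eif4ebp1, which holds eIF4E inactive until it is phosphorylated, also rose, from 6.28 to 8.57, while Eif4ebp2 read 8.35 and 7.93 and was not called. Of the elongation genes, Eef1a1 read 11.49 and 11.57, and Eef2 read 10.90 and 10.82, with adjusted p-values of 0.857 and 0.715. Eef1b2 and Eef2k differed by 0.38 and −0.18 and were not called. Eef1e1, an auxiliary protein of the synthetase complex despite its name, read 6.80 and 10.15, the widest difference of that list.

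**Figure D4:**
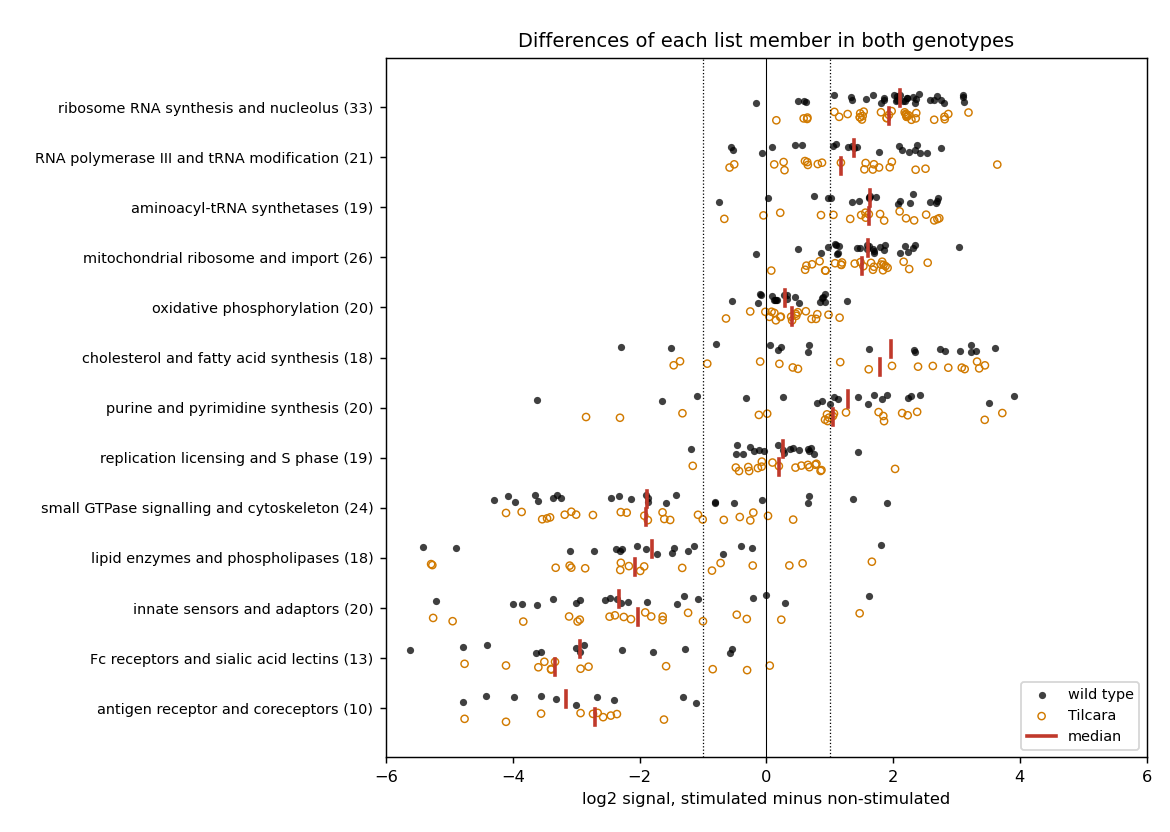
Log2 difference between stimulated and non-stimulated cells for each member used of 13 gene lists (number in brackets), in wild type (black points) and Tilcara (orange circles). In each row wild type is drawn above Tilcara, red bars are the medians and dotted lines mark 2-fold; vertical scatter within a row carries no meaning. Wild-type medians range from 2.11 for nucleolar genes to −3.16 for the antigen receptor and coreceptors, with oxidative phosphorylation near 0 at 0.30.

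Protein folding and traffic into the nucleus and the mitochondrion were higher with protein synthesis. The chaperonin CCT, a ring of 8 different subunits that folds actin and tubulin, was read through all of them: Cct3 differed by 2.24, Cct7 by 1.83, Cct6a by 1.60, Cct8 by 1.5, Tcp1 by 1.32, Cct4 by 1.16, Cct2 by 1.03 and Cct5 by 0.86. Each rose. The heat-shock genes Hspa8, Hsp90aa1 and Hspa1a differed by 0.22, 0.43 and 0.11, and none was called. Nuclear transport genes were at least 2-fold higher in 15 of 22. Among them, the import receptors Ipo4 and Ipo5 read 5.73 and 8.84, and 7.04 and 9.82. Xpot, which exports transfer RNA, read 5.34 and 8.21. The GTPase Ran, which gives transport its direction, read 8.42 and 10.13, its exchange factor Rcc1 5.12 and 6.98, and its activator Rangap1 5.98 and 7.86. Xpo1, the general exporter of proteins, went the other way, from 7.97 to 6.85, and fell. Ipo4 has 2 probe sets; the second differed by 0.22 and their mean by 1.66, in place of 3.11.

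Mitochondrial genes divided by function in the lists read here. Of 26 genes for the mitochondrial ribosome, protein import and chaperones, 22 were at least 2-fold higher with a median of 1.60, and 25 rose. Whole families by symbol had smaller shares, so the list's share depends on its chosen members. Mrpl genes were higher in 14 of 43 (median 0.71), Mrps genes in 10 of 28 (0.67) and Timm genes in 7 of 15 (0.89). The import route was covered from outside to inside: Tomm40 read 5.48 and 7.83, Timm50 read 6.29 and 8.48, and Timm23 read 8.34 and 10.20. Timm9 and Timm10, chaperones between both membranes, differed by 2.24 and 2.11. Tfam, which packs mitochondrial DNA, read 6.19 and 6.03 and was not called. In the list of oxidative phosphorylation, only Cycs, for cytochrome c, was past 2-fold (8.97 and 10.24) among 20 genes used, and the median was 0.30. In all 6 rose, and Sdha, a subunit of succinate dehydrogenase, fell by 0.55 in wild type. The difference between both lists was not tested.

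Transporters that feed growth were higher in 12 of 19 genes used, with a median of 1.88. Slc7a5 and Slc3a2, which pair to import large neutral amino acids, read 6.39 and 10.58, and 7.87 and 9.75. Slc16a1, a lactate carrier, read 4.84 and 8.23, and Slc25a33, which brings pyrimidine nucleotides into mitochondria, read 4.42 and 7.67. Tfrc, the transferrin receptor that supplies iron, read 7.19 and 9.93. The glucose carriers were not among them: Slc2a1 read 7.93 and 8.30 with an adjusted p of 0.112, and Slc2a3 fell from 5.07 to 4.21. In glycolysis, 4 of 13 genes were at least 2-fold higher. Hk2, the inducible hexokinase, read 4.34 and 6.84 and Pfkp, a phosphofructokinase, 6.38 and 8.43, while Gapdh read 10.05 and 10.07. Pdk1, which restrains entry of pyruvate into mitochondria, fell from 5.50 to 4.16, with −4.11 on its second probe set.

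One-carbon and nucleotide synthesis were high together. Of 16 genes for serine, folate and polyamines, 8 were at least 2-fold higher, none lower, and 13 rose. The mitochondrial folate enzymes Mthfd2 and Shmt2 read 4.98 and 8.84, and 6.47 and 9.68, and the cytosolic Shmt1 and Mthfd1 differed by 2.89 and 2.18. Psat1, in the serine pathway, read 5.35 and 8.70. Tyms, for thymidylate synthase, read 5.10 and 5.19 and was not called. Purine and pyrimidine synthesis had 13 of 20 genes past 2-fold upwards and 3 downwards. Uck2, the uridine and cytidine kinase, read 5.13 and 9.04, and its mean over probe sets differed by 3.30. Related enzymes parted: Ctps, for CTP synthase, rose from 5.67 to 9.19 as Ctps2 fell from 6.89 to 3.27, and Prps1, which makes the ribose phosphate for all nucleotides, rose from 6.25 to 7.96 as Prps2 fell from 6.64 to 4.99. The third lower gene was Rrm2, the subunit that lets ribonucleotide reductase make DNA precursors, at 5.19 and 4.10.

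Sterol synthesis was covered along its length. Sqle, which makes squalene epoxide, read 6.16 and 9.77, 12.2-fold higher. Hmgcs1, near the start of the pathway, read 6.80 and 10.03, Fdps 6.19 and 9.25, Fdft1, for squalene synthase, 5.84 and 9.07, Lss, for lanosterol synthase, 4.52 and 7.34, and Cyp51 6.06 and 9.38. Each rose, and so did Insig1, which holds the pathway in check when sterol is ample, from 7.86 to 10.19. Mvk and Dhcr7 did not pass the test, with differences of 0.18 and 0.07. The exporters of cholesterol were lower: Abca1 read 7.21 and 4.91, and Abcg1 read 6.18 and 4.67. For fatty acids, Fasn read 6.03 and 8.77 and Acaca 5.74 and 7.36, while Scd1, which desaturates them, fell from 9.53 to 8.73. In all, 10 of the 18 used had gained 2-fold or more and 2 had lost as much.

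Cell cycle genes were past 2-fold mainly among those that act at entry into the cycle. Ccnd2, for the D cyclin of B cells, read 7.36 and 10.38, and Cdk6 and Cdk4, the kinases it binds, read 6.68 and 9.68, and 7.13 and 8.56. Cdkn1b, for the inhibitor p27 that keeps cells at rest, read 8.47 and 4.78, and Rbl2, a pocket protein of resting cells, read 6.93 and 3.86. Ccng2, a cyclin of arrested cells, read 7.32 and 3.74. Cdkn1a, for the inhibitor p21, rose from 4.42 to 6.44, against the direction of the other inhibitors Cdkn2c (−1.79) and Cdkn2d (−1.13). Ccne1 and Cdk2, which act later in that phase, fell by 1.24 and 0.95 in wild type. Among 19 genes of replication, Mcm6 was the only one at least 2-fold higher, at 6.70 and 8.14, and Gmnn, for the licensing inhibitor geminin, the only one lower. None of 11 mitotic genes was 2-fold higher, and Mki67 read 4.98 and 3.79. In the limma fit 6 of the replication genes rose and 1 fell, and 1 of the mitotic genes rose and 2 fell, beside 22% and 22.8% of all genes. Histone genes were at least 2-fold lower in 10 of 25, and higher in none.

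**Figure D5:**
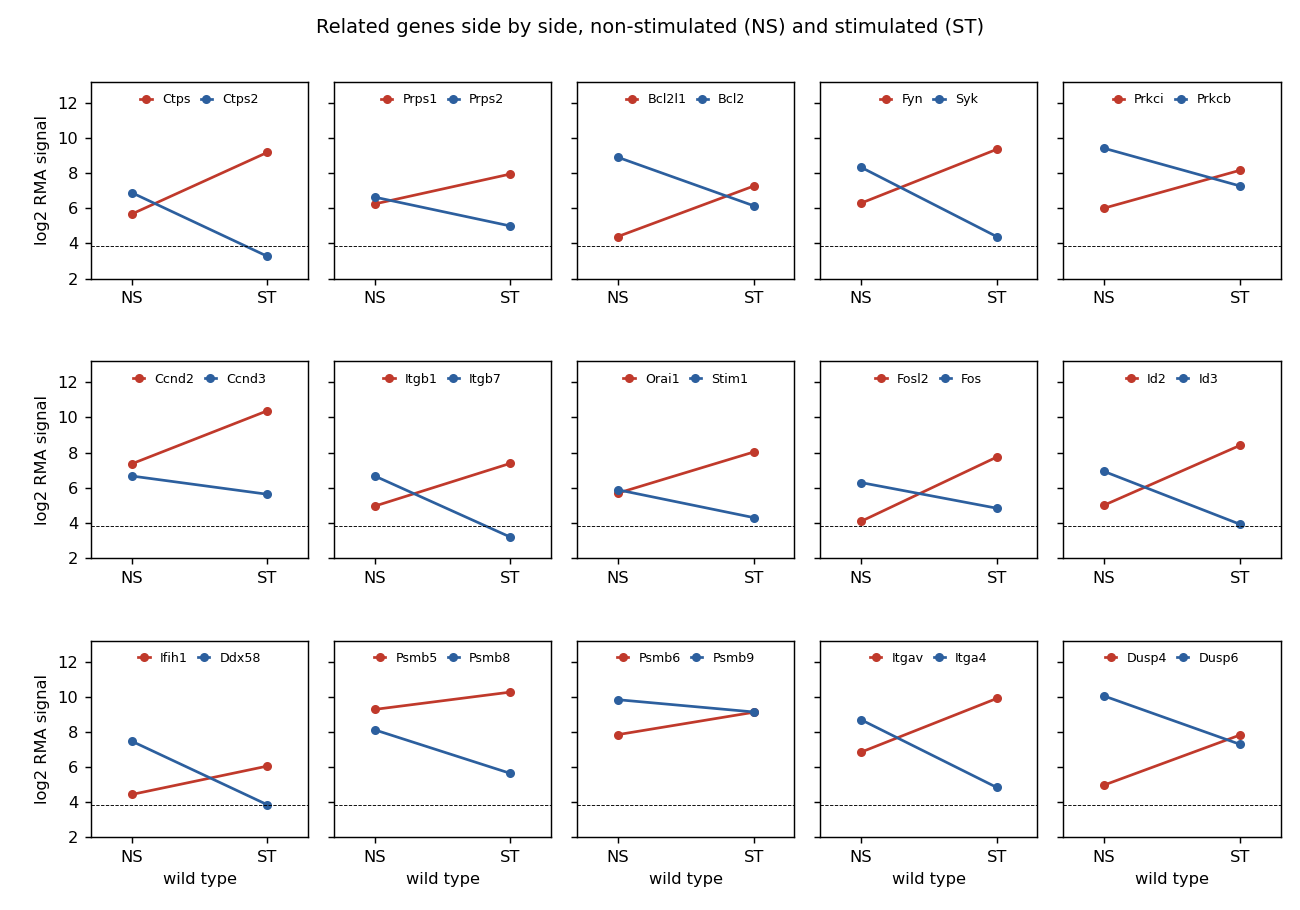
Log2 RMA signals of 15 pairs of related genes in the non-stimulated (NS) and stimulated (ST) wild-type array, 1 array each, with the floor of 3.83 dashed. In each panel the red gene was higher after stimulation and the blue gene lower, as for Ctps (5.67 to 9.19) and Ctps2 (6.89 to 3.27); pairs were picked after their values were seen, and signals of different genes are not on a shared scale of abundance.

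Among 18 genes of PKC and diacylglycerol signalling, 9 were at least 2-fold lower, 1 was higher and 8 were neither, with a median of −0.87; 2 rose and 10 fell. Of 17 genes of calcium handling, 8 were lower, 4 higher and 5 neither, with a median of −0.78; 4 rose and 9 fell. Rasgrp2 read 8.56 and 3.71, Rasgrp1 8.09 and 4.67, and Rasgrp3 9.12 and 6.74; their products load Ras-family GTPases when diacylglycerol or a phorbol ester binds. Dgka, which removes diacylglycerol, read 8.89 and 4.23, and Prkd2, a kinase downstream of PKC, 7.75 and 4.01. Prkcb itself fell from 9.42 to 7.28. Atypical PKC iota, from Prkci, does not bind phorbol esters, and its gene rose from 6.01 to 8.16. On the calcium side, Orai1, the store-operated channel, rose from 5.69 to 8.03 while Stim1, its sensor in the endoplasmic reticulum, fell from 5.88 to 4.30. Pumps parted in the same way, with Atp2a2 at 7.56 and 9.60 and Atp2a3 at 7.95 and 5.52. The release channels Itpr2 and Itpr3 fell by 2.53 and 2.97 in wild type. Rcan1, a calcineurin inhibitor and known NFAT target, rose from 5.03 to 6.42.

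Every used gene of the antigen receptor and its coreceptors was at least 2-fold lower, 10 of 10, with a median of −3.16. Cd22, an inhibitory lectin of the receptor complex, read 10.30 and 5.52, and Cd79b, given above, differed by −4.43. Among 19 kinases and adaptors behind the receptor, 14 were lower, with Syk at 8.34 and 4.39, Btk at 8.63 and 5.43 and the phosphatase Ptpn6 at 10.06 and 5.96. The Src-family kinase Fyn was the 1 gene of that list that rose, from 6.30 to 9.36. Another member of that family, Blk, read 8.62 and 8.34 and was not called. Variable and joining segments of the kappa light chain, read as 14 probe sets, were at least 2-fold lower in 13, with a median of −2.98. Igkv4-72 read 10.19 and 6.77, and Igkj1 read 9.77 and 6.55, while the heavy chain constant gene Ighm fell by less on its brightest probe set, from 11.85 to 10.88, with −2.14 on the second. Segments of 1 locus are alike in sequence, so their probe sets may read more than the segment named.

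Transcription factors moved both ways. Of the orphan receptor and zinc finger genes induced by calcium and MAP kinases, Nr4a3 read 4.82 and 10.27, Egr2 6.56 and 10.09 and Nr4a2 4.90 and 8.70. AP-1 genes parted by member: Batf rose from 5.89 to 9.72, Fosl2 from 4.08 to 7.74, Atf3 from 5.16 to 8.69 and Bach1 from 5.05 to 7.65, whereas Fos, Fosb, Jun and Jund fell by 1.46, 1.09, 1.18 and 1.84 in wild type. Fos, Jun and Fosb are known as early and brief responders, and 4 h was the only time read. Myc rose from 8.96 to 10.92, and Mxd4, whose product competes for the partner of MYC, fell from 6.76 to 4.05. Among factors that set B cell identity, 11 of 15 were lower, including Pax5 (9.24 and 6.09), Spib (9.56 and 6.24), Ets1 (8.97 and 5.51) and Ikzf1 (8.54 and 5.73). Irf8 went against the rest, from 10.28 to 11.60, and Ebf1 and Pou2af1 differed by −0.40 and −0.33, not called. Ahr, for the aryl hydrocarbon receptor, read 5.17 and 9.43, and Irf4 read 8.43 and 10.53. Id2 differed by 3.40, to 8.40, and did not pass the test (adjusted p = 0.0731), while Id3, for a related inhibitor of E proteins, fell from 6.92 to 3.92. Prdm1, the plasma cell factor, read 4.24 and 4.80, Xbp1 6.30 and 6.25, and Bcl6 8.10 and 7.53.

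Inhibitors that feed back on the same signals were at least 2-fold higher in 12 of 26 and lower in 4. Among them, the regulators of G protein signalling Rgs16 and Rgs1 read 4.13 and 8.28, and 4.28 and 8.03. Cish, a suppressor of cytokine signalling, read 4.07 and 8.07, and its mean over probe sets differed by 3.34. Spry1, which restrains Ras, read 3.47 and 6.63. The phosphatases of MAP kinases did not move as 1 group: Dusp4 and Dusp5 rose to 7.81 and 6.71 from 4.97 each, Dusp6 fell from 10.04 to 7.29 and Dusp1 from 7.82 to 6.57, and Dusp2 read 8.99 and 9.11. Tnfaip3, for the NF-kB inhibitor A20, rose from 6.92 to 9.70. Nfkbia, for IkB alpha, read 9.15 and 9.70 and was not called (adjusted p = 0.883).

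Secreted and surface molecules were read in several lists. Of 12 chemokine genes, 7 were at least 2-fold higher and none lower. Xcl1, for lymphotactin, rose from 6.91 to 11.07, and Ccl5 read 8.71 and 8.15. Ifng read 3.90 and 7.81, and Tbx21, for the factor T-bet, 5.19 and 8.96; each rose. Xcl1, Ifng and Tbx21 are also used by T and NK cells, and Il2, among the largest increases, by T cells. Marker sums of these cells were lower in the stimulated wild-type array, as given above. In non-stimulated and stimulated Tilcara they were 6.51 and 6.21 for T cells, and 8.24 and 6.87 for NK cells. The part of such cells in the signals of these genes was not tested. Among 20 cytokine genes, 9 were higher and 3 lower, the lower ones being Ltb (10.37 and 6.35), for lymphotoxin beta, Il12a (7.20 and 5.27) and Il1b (4.70 and 3.36); Il1b was not called. Receptor chains were lower in 9 of 23 and higher in 5. Those higher included Il7r (4.20 and 7.26) and Il6st (6.10 and 8.06), and those lower Il4ra (8.79 and 6.32) and both chains of the interferon gamma receptor, Ifngr1 (7.71 and 6.06) and Ifngr2 (7.99 and 5.99). In the list of costimulation and adhesion, 13 of 25 were higher and 5 lower. Sema7a, a membrane semaphorin, read 5.54 and 8.97, Cd44, a receptor for hyaluronan, 5.53 and 7.81, and Tnfsf4, for OX40 ligand, 2.71 and 4.80. Cd48 and Sema4d fell, from 9.20 to 6.51 and from 6.66 to 4.43.

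Receptors for homing and exit from lymphoid organs were lower in 10 of 21 genes and higher in 3. S1pr1, by which lymphocytes leave lymph nodes, read 8.65 and 4.17, Cnr2, for a cannabinoid receptor of B cells, 9.01 and 4.45, and Selplg, a selectin ligand, 7.81 and 4.86. Integrin subunits went both ways: Itga4 and Itgb7, which pair for homing to the gut, read 8.69 and 4.84, and 6.66 and 3.18, while Itgav and Itgb1 rose, from 6.84 to 9.90 and from 4.95 to 7.39. Ccr7 and Cxcr5, which place B cells at the border of the follicle and inside it, differed by 0.71 and −0.68. Cxcr5 fell and Ccr7 was not called. Genes of small GTPase signalling and the actin cytoskeleton were lower in 16 of 24, with a median of −1.88, and 19 fell. Dock8, an exchange factor of Cdc42, read 8.97 and 4.68, Arhgap45 8.88 and 4.80, Coro1a, an actin-binding protein of leukocytes, 9.84 and 6.19, and Rac2 10.93 and 8.48. Cdc42 itself read 10.41 and 10.35 and was not called.

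Receptors and enzymes that sense microbes were lower almost throughout. Among 20 innate sensors and adaptors used of 26 listed, 16 were at least 2-fold lower, with a median of −2.33, and 15 fell. Tlr1 read 9.58 and 5.57, and Tlr9, for the endosomal DNA receptor, 8.37 and 5.91. Unc93b1, which carries such receptors to endosomes, read 9.84 and 5.99, and Cd180 and its partner Ly86 read 10.07 and 6.70, and 9.53 and 6.97. Tlr7, for the endosomal RNA receptor, read 7.81 in both wild-type arrays. The cytosolic RNA sensors parted: Ddx58, for RIG-I, fell from 7.47 to 3.85, and Ifih1, for MDA5, rose from 4.43 to 6.05. Myd88, the shared adaptor, differed by 0.30 and was not called.

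The Ifi200 and Trim clusters, interferon-inducible families with many near copies, were lower in 10 of 12. Trim34a read 9.72 and 3.51, with −6.33 on its second probe set, Ifi209 read 10.00 and 6.09 and Trim12c read 7.69 and 4.17. Ifi202b was the exception at 2.20 and 8.58. Copies of these genes are close in sequence and a probe set may read a neighbour, so the split within the cluster is uncertain. Interferon-stimulated genes outside it were lower in 12 of 24, among them Samd9l (7.98 and 4.55), Oas2 (5.90 and 3.38) and Eif2ak2 (5.93 and 3.52), for the kinase PKR. Isg15 and Ifit1 differed by 0.13 and −0.07 and were not called. Gbp7, for a guanylate-binding protein, was the only one of these 24 at least 2-fold higher, at 4.92 and 7.08. Iigp1, for the interferon-inducible GTPase given among the largest increases, is not in that list and rose.

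Fc receptors, sialic acid lectins and the enzymes that make their ligands were lower in 11 of 13, with a median of −2.95. Fcgr2b, the inhibitory receptor for IgG, read 7.74 and 4.19, and Fcer2a, for CD23, 10.80 and 7.85. St6gal1 and Cmah, which make the sialic acid bound by CD22, read 8.67 and 4.26, and 9.14 and 5.51. Their fall ran beside that of Cd22 and Siglecg (9.50 and 6.50), the lectins themselves. Of 15 genes of MHC class II and antigen processing, 11 were lower and none higher, with a median of −2.37, and 11 fell. H2-DMa, of the peptide-loading molecule, read 10.44 and 6.92, H2-Oa 10.38 and 6.05 and the regulator Ciita 8.66 and 5.78. Among chains of the presenting molecules, H2-Eb2 fell from 8.73 to 6.84. H2-Aa read 11.15 and 10.80, H2-Ab1 read 11.15 and 10.72 and H2-Eb1 read 10.85 and 10.54, and none of these 3 was called. Lipid enzymes were lower in 14 of 18. Hpse, for heparanase, read 7.34 and 1.91 with −3.41 on its second probe set. Lpcat1 read 8.08 and 4.99, Lipa, the lysosomal lipase, 6.60 and 4.32, and Acsl4 was the only one that rose, from 6.53 to 8.34.

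Proteasome genes showed the standard and the immune forms moving apart. Of 20 subunit and assembly genes, 10 were at least 2-fold higher, none lower, and 18 rose; Psmd11, of the regulatory particle, read 7.87 and 9.88 and Psme3 6.58 and 8.30. The standard catalytic genes Psmb5 and Psmb6 read 9.28 and 10.26, and 7.84 and 9.11. Their inducible counterparts Psmb8 and Psmb9 read 8.11 and 5.63, and 9.83 and 9.13, and Psmb10 read 8.87 and 5.14. Psmb8 and Psmb10 fell, and Psmb9 did not pass the test (adjusted p = 0.0508). B2m, the light chain of MHC class I, read 12.16 and 12.11.

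Survival genes went both ways. Bcl2l1, for BCL-XL, read 4.39 and 7.27 and Bcl2a1a, 1 of several near copies, 6.93 and 8.88, while Bcl2 read 8.91 and 6.15 and Mcl1 10.49 and 9.77. Bcl2l11, for the death-promoting protein BIM, rose from 6.08 to 8.22, and Bmf, of the same class, fell from 5.57 to 4.01. Gadd45b, a stress gene, rose from 7.50 to 10.98 and Cflar, which blocks caspase 8, from 7.43 to 9.25, as Casp8 fell from 8.22 to 5.50. Of 17 genes of the unfolded protein response and of ATF4, a factor of the amino acid response, 6 were higher, 1 was lower and 10 were neither; 8 rose and 2 fell. Asns rose from 3.58 to 6.36, Chac1 from 3.77 to 6.63 and Sesn2 from 3.15 to 5.87. The chaperones of the endoplasmic reticulum Hspa5 and Hsp90b1 differed by 0.43 and −0.08 and were not called. Chromatin regulators were higher in 7 of 27 and lower in 6, beside 13.4% and 15.9% of all genes used. Kdm6b, a demethylase of histone H3, read 6.48 and 10.15, and its mean over probe sets differed by 3.23. Ezh2, which writes the mark that Kdm6b removes, read 6.79 and 8.62, and Smarca2, a remodelling ATPase, fell from 7.16 to 4.11.

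Smaller programmes of B cell subsets and housekeeping were mixed. Of 18 marginal zone, B-1 and follicular genes, 10 were lower and 4 higher. Notch2, whose signal makes marginal zone B cells, read 8.19 and 5.30, and its targets Hes1 and Dtx1 read 7.20 and 4.65, and 7.12 and 5.59. Zbtb32, a repressor found in activated and innate-like B cells, rose from 4.45 to 7.56, and the tetraspanin gene Cd9 from 5.39 to 7.77. Among 16 plasma cell and secretory genes 2 were higher and 3 lower, with a median of 0.03. These counts lie near the shares of all genes used, 13.4% and 15.9%. Mzb1, a chaperone of antibody assembly, fell from 9.19 to 5.64 and Tram1, of the secretory translocon, from 9.71 to 6.94, while Jchain read 4.95 and 4.44 and was not called. Of 10 germinal centre genes 3 were higher, with Rgs13 at 4.66 and 8.03. Of 20 quiescence genes none was higher and 13 were lower; Foxp1 read 9.97 and 10.06 and was not called. Lysosomal genes were lower in 7 of 26, among them the protease gene Ctso (8.05 and 4.47) and Hexa (7.58 and 5.35), and Gabarapl1, of autophagy, was the 1 higher at 3.64 and 5.45. Among 8 GIMAP GTPases, Gimap7 differed by −4.32 and fell and Gimap5 read 8.46 and 8.40, not called. Prkdc, the DNA-dependent kinase of end joining, fell from 6.64 to 3.70, while Ung, which removes uracil from DNA, rose from 4.22 to 5.54. Zc3h12c, of the Regnase family of RNA-degrading enzymes, rose from 5.85 to 8.63 and Zfp36l2, which marks AU-rich messenger RNAs for decay, fell from 8.77 to 7.19. Over gene families taken by symbol, at least 2-fold lower signals were read for 18 of 37 Trim genes, which include the cluster genes above. The same held for 10 of 21 Phf genes and 15 of 34 Cep genes, which mostly encode centrosomal proteins. Of 30 Arhgap genes, for GTPase-activating proteins, 13 were lower. Among all genes used the share was 15.9%. These families were picked after their values were seen, for the largest shares lower among symbol families with at least 15 genes used. In the other direction, 9 of 17 Nup genes and 13 of 26 Polr genes were at least 2-fold higher, beside 13.4% of all genes used.

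MicroRNA genes were read as 161 genes, of which 22 were at least 2-fold higher and 20 lower, shares near those of all genes. Increases in 1 cluster and 1 feedback gene are given here. The 4 cluster genes read here lie next to each other on chromosome 14: Mir17 read 7.86 and 10.27, Mir18 7.24 and 9.75, Mir19a 2.70 and 6.64 and Mir20a 6.48 and 9.72. Mir146, whose product is known to damp NF-kB signalling, read 2.12 and 6.19. Each rose. Mir142 fell from 8.49 to 6.99, and Mir342 from 5.11 to 2.90. Such probe sets read the gene's transcript, not the mature RNA. The mature sequences, from RefSeq on GRCm38.p6, are given to show which seeds (bases 2 to 8, in capitals) the cluster shares; 139 of the 161 genes had an entry.
miR-17-5p: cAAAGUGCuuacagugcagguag
miR-20a-5p: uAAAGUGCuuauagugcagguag
miR-18a-5p: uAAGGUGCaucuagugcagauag
miR-19a-3p: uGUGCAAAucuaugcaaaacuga
miR-146a-5p: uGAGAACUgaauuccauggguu
MiR-17-5p and miR-20a-5p share the seed AAAGUGC, while miR-18a-5p, miR-19a-3p and miR-146a-5p each carry another. The plus strand of chr14 holds them in the order miR-17-5p (chr14:115043684-115043706), miR-18a-5p (chr14:115043867-115043889), miR-19a-3p (chr14:115044048-115044070) and miR-20a-5p (chr14:115044183-115044205), and miR-146a-5p lies on the minus strand at chr11:43374435-43374456.

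Promoter letters were searched for 10 short motifs, on both strands, from 250 bases before to 50 bases after each RefSeq start. In the 100 genes with the largest increases, 79 had a promoter entry, and in the 100 with the largest decreases 84. The NFAT core TGGAAA stood in 27.8% of the first, 27.4% of the second, 19.4% of genes used and 23.9% of all genes in the table. The AP-1 motif TGANTCA stood in 8.86%, 9.52%, 6.33% and 8.97%, and the E-box CACGTG, bound by MYC among others, in 16.5%, 9.52%, 11.6% and 8.09%. The interferon response motif GAAANNGAA, which can overlap the NFAT core, stood in 13.9%, 19%, 8.54% and 9.76%. The ETS motif CCGGAAGT stood in 3.8%, 3.57%, 8.74% and 4.31%, the CRE motif TGACGTCA in 2.53%, 0%, 3.53% and 2.03%, and the kappa B motif GGGANTTTC, which can also overlap the NFAT core, in 1.27%, 4.76%, 1.17% and 1.29%. The KLF motif CCACACCC stood in 3.8%, 8.33%, 4.49% and 4.09%, the octamer ATGCAAAT in 3.8%, 3.57%, 1.52% and 1.97%, and the EGR motif GCGTGGGCG in 0%, 0%, 1.38% and 0.707%. The shares with NFAT and AP-1 letters at the largest decreases were close to those at the largest increases, and no test was made. Promoters of 3 genes are shown as examples of signals that rose: Il2 (chr3:37125905-37126204, minus strand), Cxcl10 (chr5:92348840-92349139, minus strand) and the nucleolar gene Noc4l (chr5:110653333-110653632, minus strand), which read 6.22 and 9.35. Capitals mark matches of any of the 10 motifs, and overlapping matches run together.
Il2: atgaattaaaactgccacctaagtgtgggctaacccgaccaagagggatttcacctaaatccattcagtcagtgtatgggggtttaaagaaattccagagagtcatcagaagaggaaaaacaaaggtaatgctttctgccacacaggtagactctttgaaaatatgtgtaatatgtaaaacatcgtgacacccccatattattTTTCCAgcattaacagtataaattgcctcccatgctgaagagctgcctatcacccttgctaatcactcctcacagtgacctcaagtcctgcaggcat
Cxcl10: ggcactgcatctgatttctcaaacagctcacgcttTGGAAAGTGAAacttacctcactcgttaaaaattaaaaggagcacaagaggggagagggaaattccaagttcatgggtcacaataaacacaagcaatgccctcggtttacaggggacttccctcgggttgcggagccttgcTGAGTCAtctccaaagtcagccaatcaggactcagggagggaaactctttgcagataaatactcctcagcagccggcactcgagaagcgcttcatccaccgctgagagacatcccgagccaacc
Noc4l: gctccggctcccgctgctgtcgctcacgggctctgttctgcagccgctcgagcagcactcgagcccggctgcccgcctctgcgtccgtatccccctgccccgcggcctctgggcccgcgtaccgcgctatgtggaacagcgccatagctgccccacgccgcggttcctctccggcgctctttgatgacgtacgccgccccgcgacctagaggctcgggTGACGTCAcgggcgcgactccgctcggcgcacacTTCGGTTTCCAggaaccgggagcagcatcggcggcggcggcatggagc
The only match in the Il2 window is the NFAT core as TTTCCA, its first base 47 bases before the start. The Cxcl10 window holds TGGAAA 215 bases before the start, the interferon response motif as GAAAGTGAA from 213 bases, in overlap with it, and the AP-1 motif TGAGTCA 74 bases before. The Noc4l window holds the CRE motif TGACGTCA 32 bases before the start and, overlapping each other just after it, the interferon response motif as TTCGGTTTC and the NFAT core as TTTCCA. These are matches of letters and no evidence of binding.

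Most genes past 2-fold in wild type differed in the same direction in Tilcara. Of the 1666 genes at least 2-fold higher in wild type, 1649 were higher in Tilcara by any amount, and of the 1979 lower, 1956 were lower by any amount. At the 2-fold cut, 1481 genes were higher and 1783 lower in Tilcara. Genes past 2-fold in both genotypes were not counted, nor was the share of all genes used with the same direction in both. Both genotypes share no array, but each response is 1 array minus 1 array, and no difference between them was tested. Some genes past 2-fold in wild type differed by less than 2-fold in Tilcara, and these were picked after their values were seen. Icam1, for an adhesion molecule, differed by 1.93 in wild type and −0.10 in Tilcara. Ccl22 differed by 2.68 and 0.31, Il1a by 2.74 and 0.02, Id2 by 3.40 and 0.61 and Socs3, a suppressor of cytokine signalling, by 3.09 and 0.78. Downwards, Nod1, a cytosolic sensor of peptidoglycan, differed by −2.19 and −0.31. None of these 6 genes was called by limma, whose additive model takes any gap between the genotypes' responses as noise. Other genes differed by more in Tilcara. Tnfsf4 differed by 2.09 in wild type and 4.71 in Tilcara, from non-stimulated signals below the floor in both, and Tgfb1 by 0.66 and 1.37. How many genes went each way was not counted.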

How the data were processed

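Log2 signals of 41345 probe sets on Affymetrix arrays were deposited by the authors. The submitters' processing notes name RMA, without a version; further settings are not stated. RMA aligns the arrays' distributions, so a change in total RNA per cell cannot be seen. The array annotation gave a single symbol to 23521 probe sets, which were named, and several to 1814, which were not. The probe set brightest on average across all 4 arrays stood for its gene, and a gene was used if any array reached the floor, the median of all named values. No batch is given in the labels, and the number of arrays, 1 per group, limits the precision.

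Members and lists were chosen with earlier results of these data known. Genes named were the 15 largest increases and decreases (without predicted genes, small RNAs and receptor segments), up to 5 members per list by size of difference, members of pathways given whole, markers of other cells, and Prkcb; others were picked after their values were seen. Of 1207 listed symbols, 121 had no probe set with 1 symbol. Limma 3.58.1 (R 4.3.3) was tested on simulated data. Alternatives were other scalings, probe set rules, floors, folds and limma settings. Promoter and microRNA sequences came from RefSeq tables.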

Additional observations from a re-analysis of the deposited data

Results flagged for a closer look

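Mir1951, a microRNA gene, differed by 1.49 in wild type and by −1.01 in Tilcara, opposite directions on single arrays; the difference was not tested.

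Probe sets outside the comparison also differed between the wild-type arrays. Of 1040 probe sets with several symbols that reached the floor, 132 were at least 2-fold higher and 145 lower after stimulation. Of 8875 with no symbol in the annotation, 1245 were higher and 1479 lower. Both pairs of counts lie near the shares of all genes used, 13.4% higher and 15.9% lower.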

How the results depend on the processing

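The count of genes depended on the fold chosen. At 1.5-fold, 2951 genes were higher and 3083 lower in stimulated wild type, and at 3-fold 747 and 1072. Asking limma's calls to be at least 2-fold as well left 1507 higher and 1814 lower. Centring on the median, cyclic loess, the mean over probe sets, the brightest probe set in wild type, no filter, a floor of 5 and leaving out markers of other cells (chosen after seeing the data) kept every count within 1.5 times of the reported one. Among the 310 named genes and 67 list medians recomputed, none past 2-fold changed sign; other genes were not checked for sign. Cyclic loess gave 1442 higher and 2096 lower. Of 1850 recomputed differences of named genes, 1833 moved by less than the spread between probe sets of a gene; the others were mostly means over probe sets, such as Plagl1 at 2.94 and Hpse at −4.42. Of 460 list medians, 24 moved further than that. In 640 genes with a second probe set above the floor, the 2 responses differed by a median of 0.30 and by 1.19 at the 90th percentile. Of 208 first probe sets past 2-fold, 199 had a second of the same sign and 136 one past 2-fold the same way. The limma fit compared the states within each genotype; no replicate numbers exist for a further pairing. With 1 array per state no spread within the genotype can be had, and signals below the floor limit the folds there.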
